A study of Homo sapiens with 12 samples.

Results

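The loci of 2 genes, NR5A2 and SGK1, were examined for open chromatin in human embryonic stem cells of the line H7 and in the retinal pigment epithelial line ARPE-19. ATAC-seq peaks were taken within 100 kb of NR5A2 (hg19, chromosome 1, 199996770 to 200146550) and of SGK1 (hg19, chromosome 6, 134490384 to 134639250). Peaks of any libraries that overlapped by at least 1 base were joined into regions. This gave 8 regions near NR5A2 and 12 near SGK1, of 84664 in the whole series. Both loci were chosen by the peak calls themselves, since they lie in windows of 1 Mb where several regions had a call in every H7 library and none in ARPE-19. The contrast between the lines was thus used in the choice, and all values below are descriptions with no test.

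The series is about expression of the telomerase gene TERT and compared chromatin accessibility and contacts in these lines. H7 is an embryonic stem cell line, grown here in mTeSR Plus medium. ARPE-19 is a retinal pigment epithelial line that arose spontaneously in culture, grown here in DMEM with serum. Each line had 3 libraries of 500000 cells, which the labels call triplicates without saying whether the cultures were separate, and no treatment or genetic change is given for either line. ATAC-seq uses the Tn5 transposase, which cuts accessible DNA and adds adapters to it, so that reads gather at open chromatin and form peaks. Whether the libraries carry open chromatin at marker genes of their labelled cell types was not analysed here.

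NR5A2, also known as LRH-1, is an orphan nuclear receptor that binds DNA as a monomer. It controls genes of bile acid and cholesterol metabolism in liver and steroid synthesis in the gonads, and in mouse embryonic stem cells it binds the Oct4 gene and helps to maintain its expression. SGK1 is a serine/threonine kinase of the AGC family. Its transcription is induced by glucocorticoids, mineralocorticoids and serum, and its activity depends on PI3-kinase signals through mTORC2 and PDPK1. Among its substrates are NEDD4L, a ubiquitin ligase that lowers sodium channels at the cell surface, the transcription factor FOXO3, and NDRG1. SGK1 transcripts start at several promoters and encode kinases that differ at their amino ends.

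The lists held 8622 to 15351 peaks in H7 and 40110 to 48460 in ARPE-19. They give no read totals. The background expected per position over the whole genome could be recovered from the peaks, as 0.592 to 0.653 reads in H7 and 0.425 to 0.483 in ARPE-19. Summit height is given below as the reads at the summit divided by this background of the same library. The median peak of a list had a summit height of 13.8 to 15.8 in H7 and 21.8 to 25.9 in ARPE-19. At the genome-wide background the fewest reads of a called peak were 5 to 6 in H7 and 4 in ARPE-19. A missing peak means that nothing was called at this depth, not that the chromatin was closed.

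The NR5A2 locus held peaks mostly of the stem cells. H7 replicates 1, 2 and 3 had 5, 4 and 3 peaks there, a mean of 4 ± 1 (SD, n = 3), and the ARPE-19 libraries had 1 peak each. The peaks covered 1674, 1382 and 988 bases in the H7 libraries and 346, 178 and 207 bases in the ARPE-19 libraries. Each H7 library was above each ARPE-19 library in both measures, the direction for which the locus was chosen. In how many other windows of this size the lines lie apart was not counted, so nothing is read from it. Per 10000 peaks of a list, these were 3.22 ± 0.28 peaks in H7 and 0.23 ± 0.02 in ARPE-19 (SD, n = 3). The ARPE-19 lists are the longer ones, which widens the difference in this rate. Of the 8 regions, 6 had peaks of H7 alone, 2 had peaks of ARPE-19 alone, and 0 had peaks of both lines. Over all merged regions 22.2% had an H7 peak alone, 69.2% an ARPE-19 peak alone and 8.51% a peak in both lines.

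Regions with a call in each H7 library and no ARPE-19 call (H7-only) numbered 2 near NR5A2 and 2 near SGK1. Over all merged regions 1.82% were H7-only, and since the loci were chosen for such regions, nothing is read from the difference. Regions with a call in each ARPE-19 library and no H7 call (ARPE-19-only) numbered 0 near NR5A2 and 2 near SGK1, where 26.0% of all merged regions were of that class. Regions are numbered in genome order within each locus. NR5A2 lies on the plus strand, so its numbers run with transcription, and SGK1 lies on the minus strand, so its numbers run against it.

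**Figure D1:**
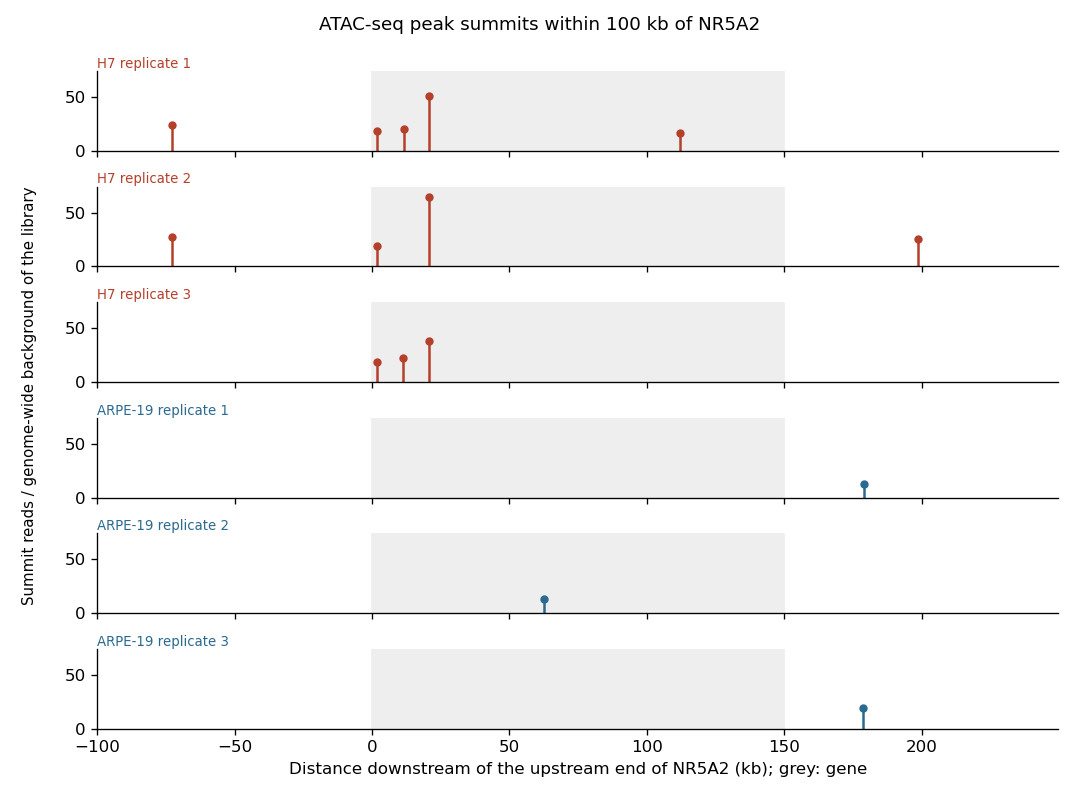
Peak summits within 100 kb of NR5A2 in each library, by distance downstream of the upstream end of the gene (x axis, kb) and summit height (y axis, summit reads over the genome-wide background of the library); grey marks the gene. All 3 H7 libraries have summits at 1.8 and 20.7 kb, and no ARPE-19 library has a summit before 62.7 kb.

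The strongest region of either locus was NR5A2 region 4, inside the gene on chromosome 1 from 200017347 to 200017796. It had 33, 38 and 24 summit reads in H7 replicates 1, 2 and 3, over a local background of 1.85, 1.85 and 1.86 reads, and no peak in any ARPE-19 library. Exact Poisson 95% intervals of these counts were 22.7 to 46.3, 26.9 to 52.2 and 15.4 to 35.7 reads, which cover counting error only and overlap each other. Its summit height was 50.5, 64.2 and 37.9, a mean of 50.87 ± 13.15 (SD, n = 3), so replicate 2 was high and replicate 3 low.

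NR5A2 region 4 stood near the top of each H7 list. By the authors' -log10 q, which was 24.7, 31.2 and 14.1 in H7 replicates 1, 2 and 3, its peak ranked 53rd of 15351, 25th of 13707 and 211th of 8622. Among the 1537 H7-only regions of the genome its summit height ranked 6th, 4th and 21st in these libraries. The summits of the 3 libraries lay within 7 bases of each other, at 200017508, 200017507 and 200017514. Over all H7-only regions the summits of the 3 libraries were spread over a median of 87 bases, with an interquartile range of 50 to 149. The region lay 20.7 kb downstream of the upstream end of the gene, and its peaks were 378, 428 and 444 bases wide, where the median peak of an H7 list had 224 to 229 bases.

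The other H7-only region of this locus, NR5A2 region 2 from 199998351 to 199998660, lay 1.6 to 1.9 kb inside the gene. It had 12, 11 and 12 summit reads in H7 replicates 1, 2 and 3 and no ARPE-19 peak. Its summit height was 18.4, 18.6 and 19.0, a mean of 18.67 ± 0.31 (SD, n = 3). Exact Poisson 95% intervals of the counts were 6.2 to 21.0, 5.5 to 19.7 and 6.2 to 21.0 reads. These are far wider than the spread of the counts, so the small SD does not show a precise height. Region 4 of the same gene was 2.75-fold, 3.45-fold and 2-fold higher in these libraries. The medians of all H7-only regions, 19.9, 20.3 and 19.0, lay close to region 2. Between these regions lay NR5A2 region 3, from 200007875 to 200008268, with 13 summit reads in H7 replicate 1 and 14 in H7 replicate 3. Replicate 2 had no peak there, so regions 2, 3 and 4 followed each other at intervals of 9.2 and 9.1 kb, with all of them called in replicates 1 and 3.

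NR5A2 region 1 lay 72.5 kb before the gene, from 199923792 to 199924236, with 16 summit reads in each of H7 replicates 1 and 2 and no call in replicate 3. The summits of both libraries were 6 bases apart, and the peaks stood at percentiles 85.9 and 91.7 of their lists by -log10 q. The 2 regions called in 1 H7 library each were region 6 inside the gene, with 11 summit reads in replicate 1, and region 8, 48.8 kb past the gene, with 15 in replicate 2. Both stood well inside their lists, at percentiles 70.5 and 89.6, although the other H7 libraries had no peak there.

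ARPE-19 peaks near NR5A2 were few and weak. Region 5, inside the gene from 200059370 to 200059547, had 6 summit reads in ARPE-19 replicate 2 and no other call. Region 7, 29.0 kb past the gene from 200175540 to 200175961, had 6 and 8 summit reads in ARPE-19 replicates 1 and 3. By -log10 q these peaks stood at percentiles 19.1, 15.0 and 35.2 of their lists, in the lower part. Without ARPE-19 replicate 2, region 7 counts as ARPE-19-only, and the count near NR5A2 is 1 in place of 0. No ARPE-19 peak was called from 199825191 to 200059369, a stretch of 234.2 kb that holds NR5A2 regions 1 to 4. Of 65858 stretches between neighbouring ARPE-19 peaks of the genome, 1317 were at least as long, and these held 24.9% of the length of all of them.

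The promoter table of RefSeq, on the build GRCh38.p14, lists 2 starts for NR5A2, and the second lies 14.9 kb downstream of the first. On hg19 regions 2, 3 and 4 lay 1.6 to 1.9, 11.1 to 11.5 and 20.6 to 21.0 kb downstream of the upstream end of the gene. No coordinate was carried from one build to the other, so no region was assigned to a start, and each distance holds within its own build. The 250 bases before each start are shown because the H7 regions lie around this end of the gene. They are on the plus strand of chromosome 1 of GRCh38.p14, at 200027460 to 200027709 for start 1 and 200042341 to 200042590 for start 2. Capitals mark matches to 5 motifs, searched on both strands. The core of the TATA box was searched as TATAA. The GC box, bound by factors of the SP family, was searched as GGGCGG. The site of AP-1 factors was searched as TGANTCA. The octamer of POU factors, POU5F1 among them, was searched as ATGCAAAT. The monomer site of NR5A receptors was searched as CAAGGTCA.
NR5A2 start 1: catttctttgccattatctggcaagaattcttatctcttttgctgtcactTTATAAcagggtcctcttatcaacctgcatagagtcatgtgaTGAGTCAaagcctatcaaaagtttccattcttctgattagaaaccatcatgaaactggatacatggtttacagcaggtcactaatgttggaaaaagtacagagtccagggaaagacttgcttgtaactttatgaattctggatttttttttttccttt
NR5A2 start 2: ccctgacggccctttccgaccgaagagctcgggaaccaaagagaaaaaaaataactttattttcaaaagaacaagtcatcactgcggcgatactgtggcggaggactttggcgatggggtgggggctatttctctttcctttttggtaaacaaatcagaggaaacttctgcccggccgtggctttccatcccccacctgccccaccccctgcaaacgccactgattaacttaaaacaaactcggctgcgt
The sequences before the starts differed in composition. Start 1 had 36.0% G and C and 0 CpG, with 2 overlapping matches to the TATA core on opposite strands, 196 to 200 and 195 to 199 bases before the start, and 1 match to the AP-1 site. Start 2 had 50.8% G and C and 13 CpG, and none of the searched motifs. Over the 35116 promoters of the table the medians were 58.0% G and C and 11 CpG. The TATA core was found in 18.9% of them, the GC box in 42.6%, the AP-1 site in 6.57%, the octamer in 1.63% and the NR5A site in 1.14%.

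The SGK1 locus held regions of both lines. H7 replicates 1, 2 and 3 had 4, 5 and 3 peaks there and ARPE-19 replicates 1, 2 and 3 had 4, 5 and 4, with means of 4 ± 1 and 4.33 ± 0.58 (SD, n = 3). The peaks covered 1092, 1257 and 718 bases in the H7 libraries and 1156, 1124 and 1387 bases in the ARPE-19 libraries, so the lines overlapped in both measures. Per 10000 peaks of a list, these were 3.24 ± 0.56 peaks in H7 and 0.99 ± 0.22 in ARPE-19 (SD, n = 3). The numbers themselves overlapped, so the difference in this rate follows from dividing by the longer ARPE-19 lists. With each list shortened to its 8622 strongest peaks, the mean number was 3.33 in H7 and 0.33 in ARPE-19. This cut keeps the whole list of H7 replicate 3 but only the strongest part of the ARPE-19 lists, which hold 40110 to 48460 peaks. It thus removes weaker ARPE-19 peaks by construction. Of the 12 regions, 5 had peaks of H7 alone, 6 had peaks of ARPE-19 alone, and 1 had peaks of both lines. The shares of these classes over all merged regions were 22.2%, 69.2% and 8.51%. Near SGK1 the share of H7 alone was thus higher and that of ARPE-19 alone lower. This is the direction for which the locus was chosen, so nothing is read from it.

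**Figure D2:**
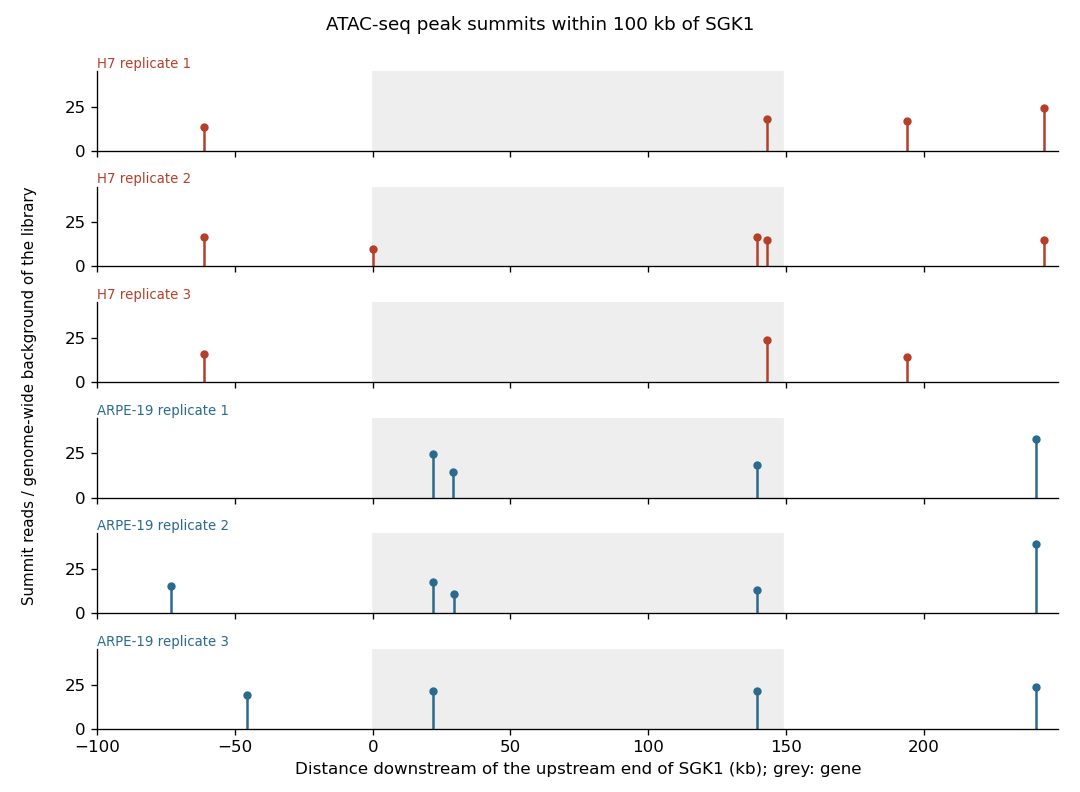
Peak summits within 100 kb of SGK1 in each library, by distance downstream of the upstream end of the gene (x axis, kb) and summit height (y axis, summit reads over the genome-wide background of the library); grey marks the gene. The H7 libraries share summits near -61.1 and 143.2 kb, and the ARPE-19 libraries share summits near 22.0, 139.5 and 240.7 kb.

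Near its downstream end SGK1 carried an H7-only region beside one of both lines. SGK1 region 4, on chromosome 6 from 134495943 to 134496188, had 12, 9 and 15 summit reads in H7 replicates 1, 2 and 3 and no ARPE-19 peak. Its summit height was 18.4, 15.2 and 23.7, a mean of 19.1 ± 4.29 (SD, n = 3), with replicate 3 high and replicate 2 low. The peaks were narrow, at 174, 153 and 228 bases, and the summits were spread over 132 bases. Only 3318 bases further from the downstream end lay SGK1 region 5, from 134499507 to 134499904, with peaks in 4 libraries. It had 10 summit reads in H7 replicate 2, against 9, 6 and 9 in ARPE-19 replicates 1, 2 and 3, and its summit height was 16.9 in that H7 library and 18.6, 13.1 and 21.2 in ARPE-19. The H7 value lay within the ARPE-19 range, and the region had a call in 1 H7 library and in each ARPE-19 library.

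For SGK1 the RefSeq table lists 3 starts on GRCh38.p14, of which the second and the third lie 140.3 and 143.2 kb downstream of the first. On hg19 region 5 lay 139.3 to 139.7 kb and region 4 lay 143.1 to 143.3 kb downstream of the upstream end of the gene. Here too no coordinate was carried between the builds, and no region was assigned to a start. The 250 bases before the second and the third start are shown because both regions lie at this end of the gene. They are on the minus strand of chromosome 6 of GRCh38.p14, at 134177862 to 134178111 for start 2 and 134174867 to 134175116 for start 3, with capitals for the same motifs.
SGK1 start 2: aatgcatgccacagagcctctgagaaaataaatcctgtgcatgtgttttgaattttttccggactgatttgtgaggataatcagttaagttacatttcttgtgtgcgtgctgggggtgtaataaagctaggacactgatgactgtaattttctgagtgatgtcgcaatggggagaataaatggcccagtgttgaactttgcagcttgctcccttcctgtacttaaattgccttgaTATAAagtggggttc
SGK1 start 3: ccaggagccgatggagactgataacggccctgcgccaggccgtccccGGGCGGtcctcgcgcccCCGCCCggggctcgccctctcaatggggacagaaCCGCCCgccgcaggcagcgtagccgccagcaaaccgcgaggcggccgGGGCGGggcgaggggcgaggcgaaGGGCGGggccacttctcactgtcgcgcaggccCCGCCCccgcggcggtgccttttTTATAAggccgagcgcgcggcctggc
The sequence before start 2 had 41.6% G and C, 3 CpG and 1 match to TATAA, 11 to 15 bases before the start. The sequence before start 3 was much richer, with 76.0% G and C and 35 CpG, at percentiles 91.9 and 95.1 of all promoters in the table. It held 6 matches to GGGCGG, and 2 overlapping matches to TATAA on opposite strands, 22 to 26 and 21 to 25 bases before the start.

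The other H7-only region, SGK1 region 11, lay 61.0 kb before the gene from 134700267 to 134700619. It had 9, 10 and 10 summit reads in H7 replicates 1, 2 and 3 and no ARPE-19 peak. Its summit height of 13.8, 16.9 and 15.8, a mean of 15.5 ± 1.57 (SD, n = 3), was below that of the median H7-only region in each library. At the same side lay 2 regions of 1 ARPE-19 library each, region 10 with 8 summit reads in replicate 3 and region 12 with 7 in replicate 2.

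Of the ARPE-19-only regions of SGK1, 1 lay past the gene and 1 inside it. SGK1 region 2, 91.6 kb past the gene from 134398391 to 134398792, had 16, 18 and 10 summit reads in ARPE-19 replicates 1, 2 and 3 and no H7 peak. Its summit height of 33.1, 39.3 and 23.5, a mean of 31.97 ± 7.96 (SD, n = 3), was the highest of this locus. SGK1 region 8, inside the gene from 134617071 to 134617468 and 22.0 kb from its upstream end, had 12, 8 and 9 summit reads in ARPE-19 replicates 1, 2 and 3. Its summit height was 24.9, 17.5 and 21.2, above the median of the list in replicate 1 and below it in replicates 2 and 3.

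The remaining regions near SGK1 were called in 1 or 2 libraries. Region 1, with 16 and 9 summit reads in H7 replicates 1 and 2 and no other call, ended 2435 bases from the ARPE-19-only region 2. Region 3, 45.1 kb past the gene, had 11 and 9 summit reads in H7 replicates 1 and 3. Region 9, the only one at the upstream end of the gene (0.1 to 0.3 kb inside it), was called in H7 replicate 2 alone with 6 summit reads, at percentile 8.3 of that list. Regions 6 and 7, inside the gene, were each called in 1 ARPE-19 library, with 5 summit reads in replicate 2 and 7 in replicate 1. They were 27 bases apart and so counted as separate regions.

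**Figure D3:**
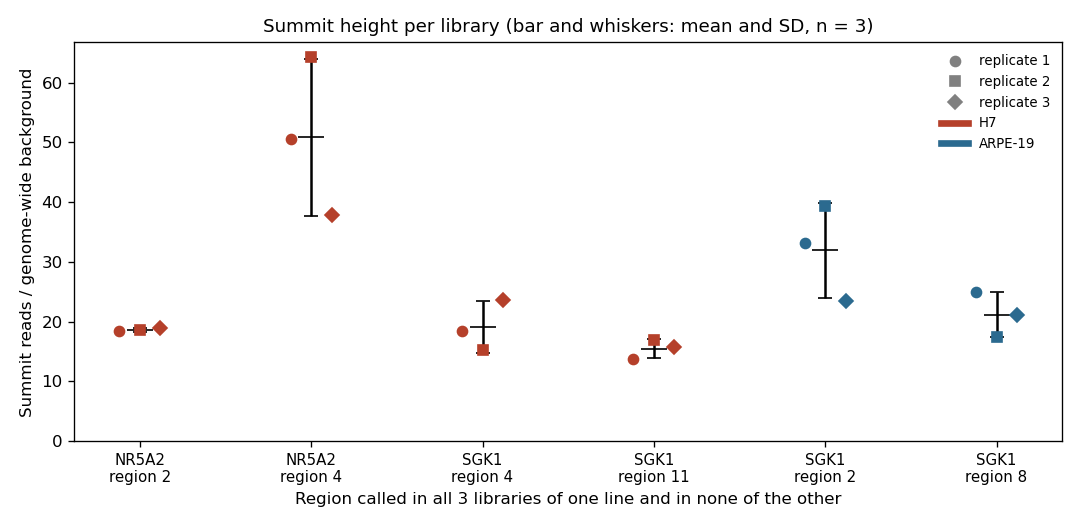
Summit height (y axis, summit reads over the genome-wide background) in each library at the 4 H7-only and 2 ARPE-19-only regions (x axis); symbols are replicates, bars and whiskers the mean and SD of 3 libraries. NR5A2 region 4 reaches 37.9 to 64.2 in H7, while the other H7-only regions stay between 13.8 and 23.7.

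The signal of each peak was also expressed at the depth of the other line. The summit reads and local background of each peak were multiplied by the ratio of genome-wide backgrounds, and set against the fewest reads that the smallest deposited -log10 p of the other list allows. The 2 H7-only regions of NR5A2 would have had 7.8 to 9.2 reads (region 2) and 16.1 to 31.0 reads (region 4) in an ARPE-19 library, where 6 to 7 were needed. The H7-only regions of SGK1 would have had 6.5 to 11.4 reads (region 4, 6 to 7 needed) and 5.9 to 8.2 reads (region 11, 4 to 5 needed). The ARPE-19-only regions would have had 13.9 to 25.7 reads (SGK1 region 2) and 10.4 to 16.2 reads (SGK1 region 8) in an H7 library, where 6 to 7 were needed. These regions are those that every library of their own line called, so their reads lie above what a call needs partly by that choice, and the values are given as a description only. SGK1 region 9, a peak of 6 summit reads in H7 replicate 2, would have had 4.3 to 4.9 reads in ARPE-19 and reached the 4 to 5 needed in 1 of 3 libraries. A signal just above the reads needed would be missed in some libraries by counting error alone.

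**Figure D4:**
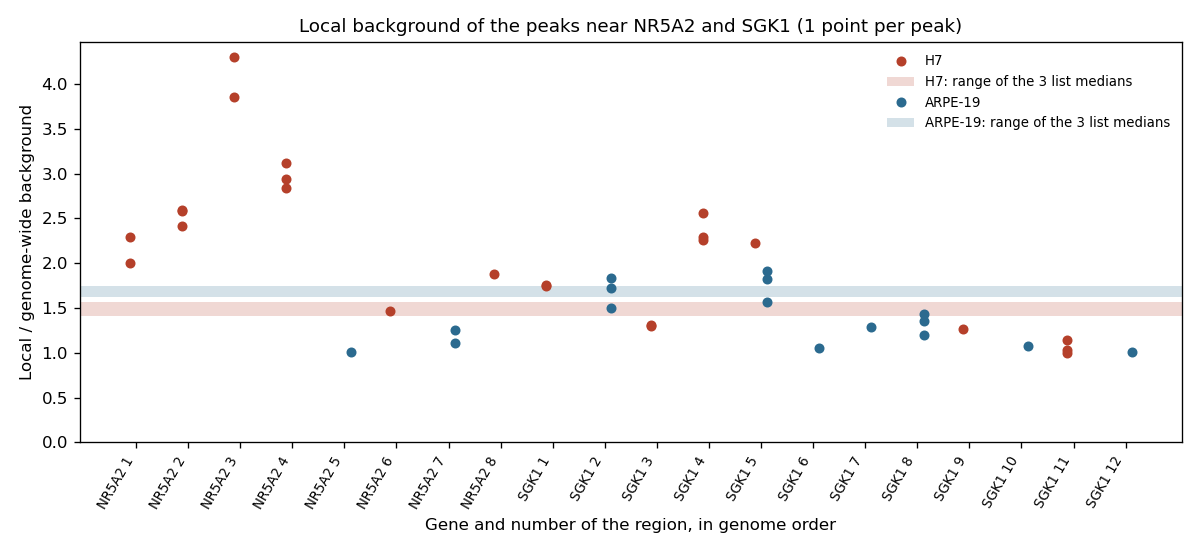
Local background of each peak over the genome-wide background of its library (y axis), by region in genome order (x axis); bands give the range of the 3 list medians of each line. Peaks in NR5A2 regions 1 to 4 lie at 2.0 to 4.3, above the H7 band, and ARPE-19 peaks near NR5A2 lie at 1.01 to 1.25.

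The local background of the H7 peaks was above the median of their lists at the upstream end of NR5A2, and also far past the gene. It was 2.41 to 2.59 times the genome-wide background at region 2, 3.85 to 4.3 times at region 3 and 2.84 to 3.12 times at region 4, where the median peak of an H7 list had 1.41 to 1.57 times. At region 3 it stood at percentile 99.6 of both lists. Past the gene it was 4.0 to 4.09 times at a peak 186.9 kb away, 3.85 to 4.27 times at 232.6 kb and 3.95 to 4.52 times at 234.2 kb, so values as high as at region 3 were not limited to the upstream end. Reads of the peak and of its neighbours can enter this background. It was 2.26 to 2.56 times at SGK1 region 4 and 1.0 to 1.14 times at SGK1 region 11, so the H7-only regions of SGK1 differed in this measure from each other. The ARPE-19 peaks near NR5A2 had 1.01 to 1.25 times, below the medians of their lists, which were 1.62 to 1.75.

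**Figure D5:**
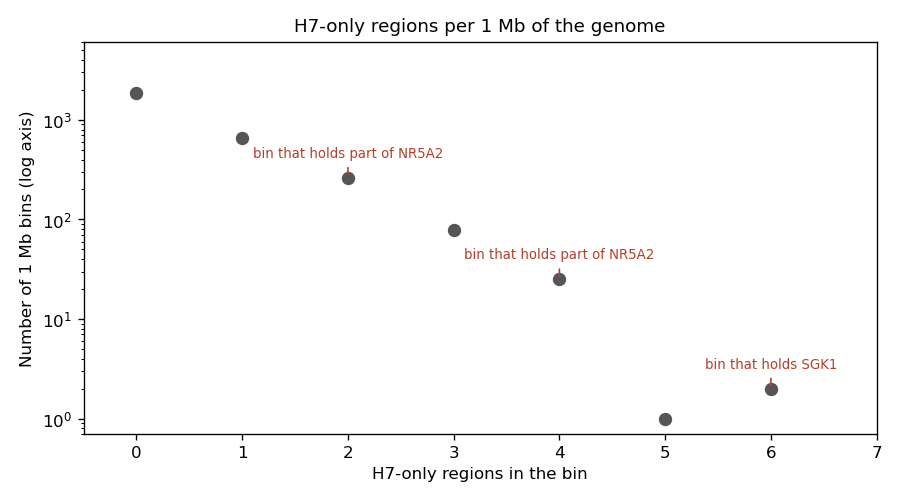
Number of 1 Mb bins of the genome (y axis, log scale) by the number of H7-only regions they hold (x axis), among 2872 bins with at least 1 merged region. The bin of SGK1 holds 6 and the bins with parts of NR5A2 hold 4 and 2.

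The surroundings of both genes held further H7-only regions, the count for which the loci were chosen. In fixed bins of 1 Mb, the bin of chromosome 6 from 134 to 135 Mb, with SGK1, held 6 H7-only and 6 ARPE-19-only regions. Of 2872 bins with at least 1 merged region, 1 other bin held 6, on chromosome 1 from 197 to 198 Mb, and no bin held more. NR5A2 lies across the border of 2 bins. These held 2 H7-only and 5 ARPE-19-only regions (199 to 200 Mb) and 4 H7-only and 5 ARPE-19-only regions (200 to 201 Mb). At least 4 H7-only regions were found in 28 bins. The next in this order, on chromosome 1 from 209 to 210 Mb, held 5.

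Most of these H7-only regions lay beyond 100 kb of the genes. Of 6 H7-only regions in the bins of each gene, 2 lay within 100 kb and 4 beyond. Just outside the limit at SGK1 was an H7-only region 116.3 kb past the gene, from 134373783 to 134374035, with 12 to 16 summit reads in H7. The nearest regions outside it had only ARPE-19 peaks and lay 102819 and 104506 bases before the gene and 108407 bases past it. The farthest region inside it was SGK1 region 1, at 94.4 kb. Near NR5A2 the farthest region inside lay at 72.5 kb and the nearest outside at 130.2 kb, a peak of 7 summit reads in H7 replicate 1. Past NR5A2 there was an H7-only region at 196.5 kb, with 10 to 14 summit reads, and another at 234.2 kb, with 12 to 21. ARPE-19-only regions lay close to them, at 202.0 and 238.5 kb. In the gene order of GRCh38.p14 the next protein-coding genes are PTPRC before and ZNF281 after NR5A2, and ALDH8A1 before and SLC2A12 after SGK1 in the direction of transcription.

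The regions differed in the settings that kept their class. NR5A2 region 4 was H7-only in all 13 alternative settings run. These changed the threshold, the list length, the overlap, the definition, the window or left out 1 library. Leaving out a library, the looser definition and the wider window could hardly remove a region of this class. The window of 50 kb could not remove one inside a gene. Only the -log10 q threshold, the list length and the overlap could thus have changed the class of the NR5A2 regions, by removing H7 peaks. The -log10 p threshold lay below every peak within 100 kb of either gene. Region 4 was far from these limits, with a -log10 q of 14.1 to 31.2, ranks of 25 to 211 and peaks over 378 to 444 of its 450 bases. That it kept its class follows from these values. No setting could add an ARPE-19 peak, so the absence of ARPE-19 calls was not tested by them. NR5A2 region 2 was H7-only in 12 of 13 and was lost with a -log10 q of at least 5. SGK1 region 4 was lost with that threshold and with lists of equal length, and SGK1 region 11 with that threshold, with the window of 50 kb, which does not reach it, and when 50% of the region had to be covered.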

How the data were processed

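Each of the 6 ATAC-seq libraries had 1 deposited peak list, while the 6 samples of 4C were not used here. The build hg19 and the tools MACS2 and bedtools come from the submitters' processing notes. No version, aligner, handling of duplicates or offset for the transposase is given in the sources used here, and a missing offset would move summits by a few bases. Every list belongs to 1 library, with no pooling of replicates.

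The deposited score is 10 times the -log10 q as a whole number in at least 99.988% of the peaks of each list. The deposited fold is a ratio of the summit reads plus 1 to the local background plus 1. The deposited -log10 p and -log10 q belong to the peak within its own library. These are the authors' values and served to rank or filter peaks inside 1 list and to recover reads.

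The members, regions, motifs and window were chosen with earlier results of these data known. Gene spans are those given with the choice of the loci. For every peak the summit reads, as a whole number, and the background were solved to meet its fold and its -log10 p, as the upper tail of a Poisson distribution. The deposited -log10 p was met to within 0.001 in at least 99.988% of the peaks on chromosomes 1 to 22, X and Y of each list. The background found most often was the lowest one and is called genome-wide here. It gives relative depth, and reads may include duplicates, so intervals cover counting error only. Every region within 100 kb was described, with full values for those called in at least 2 libraries. Annotation or sequence of hg19 was not used here, so exons, markers of cell types and genes of the pathways of NR5A2 and SGK1 were not analysed, and promoter sequences (found for 2 of 2 genes) are from RefSeq on GRCh38.p14. Bins and gaps use the same chromosomes.

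On simulated data for H7 with ARPE-19, with 84664 regions, 100% of 200 planted regions of each line were recovered, which follows largely by construction. For reads of a peak list, 100% of 5000 simulated peaks were recovered. Their fold and -log10 p were simulated with the same formulas that the recovery solves, so this too follows largely by construction. Alternatives are given in the closing section. The software was Python 3.11.15 with scipy 1.17.1, numpy 2.4.6, matplotlib 3.10.9 and pandas 2.3.3.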

Additional observations from a re-analysis of the deposited data

How the results depend on the processing

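With all peaks, H7-only regions numbered 2 near each gene, ARPE-19-only regions 0 near NR5A2 and 2 near SGK1, and the mean number of peaks of H7 minus ARPE-19 was 3 near NR5A2 and -0.33 near SGK1. Keeping only peaks with a -log10 q of 5 or more left 1 H7-only region near NR5A2 and 0 near SGK1, 1 ARPE-19-only region near SGK1, and the difference near NR5A2 was 2. With the 8622 strongest peaks of each library there was 1 H7-only and 0 ARPE-19-only regions near SGK1, and the difference there was 3. This setting shortens the longer ARPE-19 lists most. One -log10 p threshold of 4.31 for all libraries changed none of these values. It could not, since the lowest -log10 p of a peak within 100 kb of either gene was 4.87. Within 50 kb there was 1 H7-only and 1 ARPE-19-only region near SGK1. Within 250 kb there were 4 H7-only regions near each gene, 3 ARPE-19-only near NR5A2 and 6 near SGK1, and the difference near SGK1 was -4.33. A peak in at least 2 of 3 libraries gave 4 H7-only regions near each gene and 1 ARPE-19-only near NR5A2, by a looser definition. Asking that peaks cover 50% of a merged region gave 1 H7-only and 1 ARPE-19-only region near SGK1. When 1 library was left out, there were 2 to 3 H7-only regions near each gene, 0 to 1 ARPE-19-only regions near NR5A2 and 2 to 3 near SGK1, and differences of 2.5 to 3.5 near NR5A2 and -0.83 to 0.17 near SGK1. The cause of these changes was not tested. No paired analysis was possible because the values are descriptions without a test, and the labels link no replicate of one line to a replicate of the other beyond its number. Where the local background equals the genome-wide one, the fewest reads of a called peak were 5 to 6 in H7 and 4 in ARPE-19. The weakest peaks of these loci were close to this, with 6 reads in H7 (SGK1 region 9) and 5 in ARPE-19 (SGK1 region 6). The smallest deposited -log10 p was 4.05 to 4.31 in the H7 lists and 3.57 to 3.68 in the ARPE-19 lists. What sets these limits was not tested.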
